A study of Mus musculus with 6 samples.

Results

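Binding of the forkhead transcription factor (TF) FOXC2 was examined at 10 genes that set whether a cell starts DNA replication. They are the inhibitors *Cdkn1b*, *Cdkn1c*, *Cdkn2a*, *Cdkn2b* and *Cdkn2c*, the D-type cyclins *Ccnd1*, *Ccnd2* and *Ccnd3*, and the kinases *Cdk4* and *Cdk6*. The genes were listed by name, and every FOXC2 peak with any base within 50 kb of the start of one of these gene records was taken. This gave 10 of 21938 protein-coding gene records and, once overlapping peaks of either list were merged into sites, 57 of 53255 sites. FOXC2 ChIP-seq had been performed on FACS-sorted podocytes of adult mice with the mT/mG reporter, in which Cre is active in podocytes and recombined cells turn from a red to a green membrane reporter. The ADR group received adriamycin, a podocyte toxin, at 18 mg/kg on days 0 and 7, the control group received PBS on the same days, and podocytes of both were collected on day 9. Both groups carried the same reporter and Cre, on a mixed background and compared as littermates, and each had 3 samples. The processed data are 1 peak list per condition, described as a pool of the replicates. The peak names inside each list carry the label of a single sample, so how many samples stand behind a value could not be checked. With 1 list per condition no difference between PBS and ADR has a replicate check, no test was possible, and the read depth is not known.

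In the G1 phase, D-type cyclins bind CDK4 or CDK6, and these kinases phosphorylate the retinoblastoma protein RB, which then releases E2F factors that switch on the genes of DNA replication. The INK4 inhibitors, made by the *Cdkn2* genes, bind CDK4 and CDK6 directly. The Cip/Kip inhibitors p27 (*Cdkn1b*) and p57 (*Cdkn1c*) act on cyclin and kinase complexes, mainly those of CDK2. Mature podocytes are known as non-dividing cells that express p27 and p57, and their re-entry into the cell cycle after injury is a long-standing subject of kidney research.

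The sequences around the summits of the strongest sites are given because most of them carry letters related to the binding sequence of WT1, the TF that the study examined together with FOXC2. Shown are up to 50 bases on each side of the summit of the strongest site of each gene, and of the site with the highest ratio of ADR to PBS folds. They are from the GRCm38 reference of RefSeq and are cut to the bases outside annotated untranslated regions. The strongest site in the *Cdkn2c* window lay almost wholly in such a region and is not printed. Capitals mark exact matches, on either strand, to WT1 (GNGGGGGAG, GNGGGGGCG, GNGTGGGAG or GNGTGGGCG) or forkhead letters, NNAAANA, in which the leading base is A or G and the other N are C or T.
Cdkn1b downstream site, chr6:134968526-134968626, plus strand: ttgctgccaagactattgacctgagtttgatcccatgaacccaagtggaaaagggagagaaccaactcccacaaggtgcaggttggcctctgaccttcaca
Cdkn1c downstream site, chr7:143447520-143447620, plus strand: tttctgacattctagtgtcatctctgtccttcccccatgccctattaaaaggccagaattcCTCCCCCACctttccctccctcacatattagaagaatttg
Cdkn2b promoter, chr4:89311040-89311099, plus strand: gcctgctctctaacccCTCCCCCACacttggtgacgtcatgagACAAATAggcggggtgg
Ccnd1 upstream site, chr7:144941684-144941784, plus strand: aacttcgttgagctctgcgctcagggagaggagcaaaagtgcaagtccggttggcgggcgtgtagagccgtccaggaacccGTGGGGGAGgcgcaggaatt
Ccnd2 promoter, chr6:127151061-127151111, plus strand: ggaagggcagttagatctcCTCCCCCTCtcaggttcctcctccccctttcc
Ccnd3 promoter, chr17:47504992-47505050, plus strand: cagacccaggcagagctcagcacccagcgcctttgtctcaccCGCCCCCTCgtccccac
Cdk4 promoter, chr10:127063262-127063362, plus strand: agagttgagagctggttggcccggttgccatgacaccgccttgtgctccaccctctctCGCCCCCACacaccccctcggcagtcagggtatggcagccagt
Cdk6 promoter, chr5:3343789-3343887, plus strand: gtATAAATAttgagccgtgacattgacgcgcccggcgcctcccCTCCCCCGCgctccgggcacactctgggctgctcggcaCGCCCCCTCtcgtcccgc
March9 promoter in the Cdk4 window, chr10:127060366-127060466, plus strand: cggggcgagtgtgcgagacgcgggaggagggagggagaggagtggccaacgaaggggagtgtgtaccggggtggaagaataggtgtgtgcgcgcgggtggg
Of these 9 windows, 7 hold WT1 letters and 2 hold forkhead letters, at the *Cdkn2b* and *Cdk6* promoters. The windows with the lowest ratio of ADR to PBS folds, downstream of *Cdkn1b*, and the highest, at the *March9* promoter next to *Cdk4*, hold neither. A match describes the letters and does not show that a factor was bound.

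The PBS list had 54 peaks near the 10 genes and the ADR list had 40. *Cdkn2c* was the only gene with more ADR than PBS peaks, against 27.2% of all coding genes with a peak within 50 kb, and 7 genes had fewer, against 44.1%. *Cdkn1b* and *Ccnd1* had 5 peaks in each list. Among coding genes with at least 6 peaks in both lists together, the smallest number of any of the 10 genes, 29.4% had more and 48.9% fewer ADR peaks. The surplus of PBS peaks depended on the limit set on weak peaks. Among peaks at least 5 times enriched over the control, 35 PBS and 34 ADR peaks remained, and then 3 genes had more and 4 had fewer ADR peaks. The whole lists shifted toward ADR at this limit as well. Of all sites, 29.5% were then ADR only and 22.8% PBS only, beside 24.3% and 25.5% without the limit. When −log10 q had to reach 5, the numbers were 41 PBS and 35 ADR, and among the 20000 peaks with the smallest q of each list 25 and 22. The cyclins and kinases had 32 PBS and 21 ADR peaks, and the inhibitors had 22 and 19. The highest number of peaks belonged to *Cdkn1c* and *Cdk4*, and the *Cdk4* window holds the starts of 7 other coding genes.

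**Figure D1:**
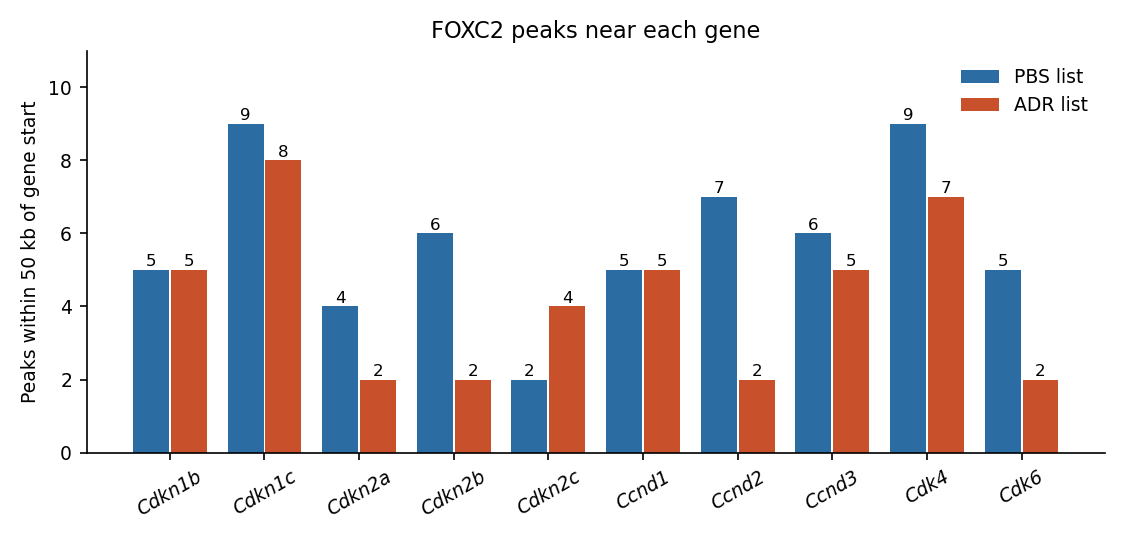
FOXC2 peaks counted within 50 kb of each gene start (vertical axis) in the PBS list (blue bars) and the ADR list (orange bars), 1 pooled list per condition without replicates. The bars differ most at *Ccnd2*, with 7 PBS and 2 ADR peaks, and only *Cdkn2c* has the taller ADR bar.

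Of the 57 sites, 34 had a peak in both lists, which is 59.6% (95% Wilson interval 46.7 to 71.4) against 50.1% of all sites. Another 17 were in the PBS list only, which is 29.8% (19.5 to 42.7) against 25.5%, and 6 were in the ADR list only, which is 10.5% (4.91 to 21.1) against 24.3%. These intervals cover counting error only. The shares over all sites were not matched for position. Of all 13971 sites with the summit at a promoter, as defined below, 74.1% were in both lists and 1245 were ADR only. At introns 41.3% were in both lists. Of the 25 promoter sites among the 57, 19 were in both lists, 5 PBS only and 1 ADR only. How far position accounts for the shares was not tested. With each limit given here the share of ADR-only sites stood below that of all sites. Whether the share of all sites lay inside the interval depended on which limit was set. With a fold of at least 5 it was 20.5% (11.2 to 34.5) against 29.5% of all sites. Among the 20000 smallest q of each list it was 13.8% (5.50 to 30.6) against 26.7%. The share of all sites lay inside both of these intervals. A −log10 q limit of 5 gave 12.8% (5.98 to 25.2) against 26.7%. A window of 10 kb gave 9.09% (3.14 to 23.6) against 24.3%. In these 2 settings the share of all sites lay above the interval. Of the 6 sites found in the ADR list alone, 5 lay near inhibitors and the remaining site was at *Ccnd1*. These were 5 of the 26 inhibitor sites, 19.2% (8.51 to 37.9), near the 24.3% of all sites. At the cyclins and kinases it was 1 of 31 sites, 3.23% (0.572 to 16.2). Sites found in a single list were weak. The PBS-only sites had a median fold enrichment of 4.72 (range 2.90 to 8.07), beside 4.98 for all PBS-only sites, and the ADR-only sites had a median of 5.55 (3.34 to 6.10), beside 5.96. The strongest PBS-only sites were 40.8 kb upstream of *Cdkn2b* (8.07), 1.81 and 2.45 kb downstream of the *Ccnd2* start (7.82 and 6.90) and 5.14 kb upstream of *Cdk4* (6.01). The strongest ADR-only site was 17.3 kb downstream of the *Cdkn1c* start (6.10).

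**Figure D2:**
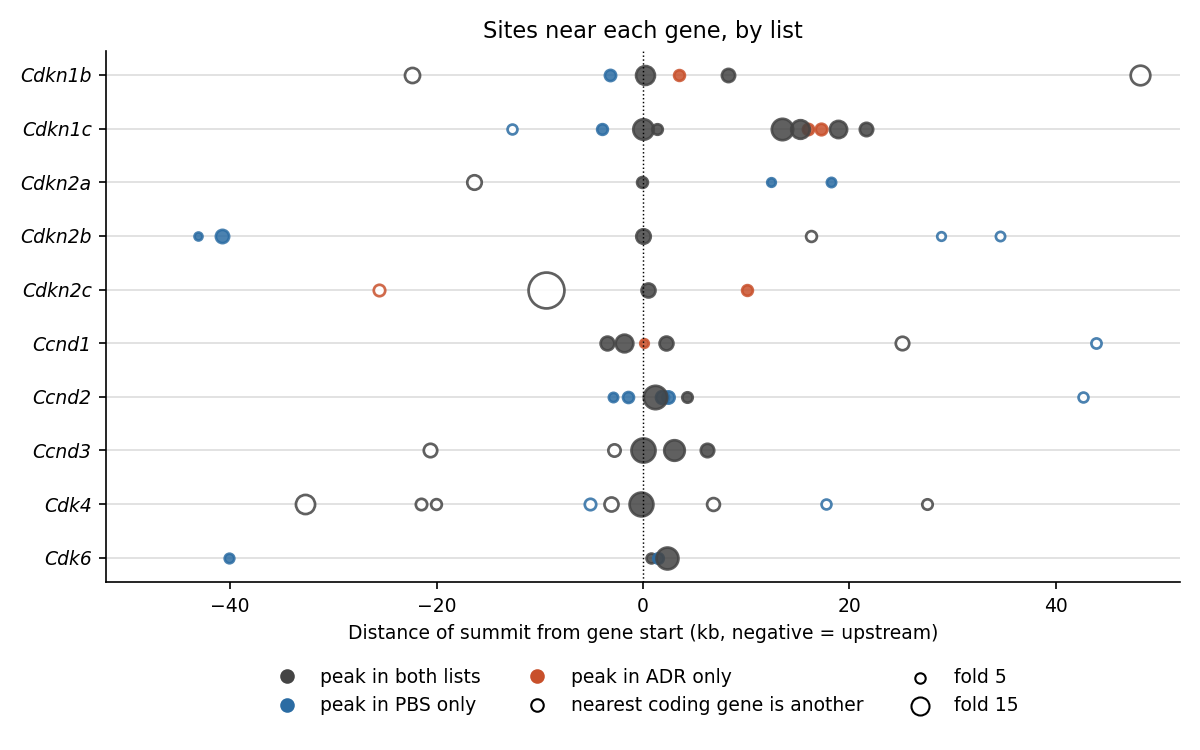
Position of each site relative to the gene start (horizontal axis, kb, negative upstream in the direction of transcription) for the 10 genes, with circle area proportional to the higher fold of either list. Grey marks sites with a peak in both lists, blue PBS only and orange ADR only, and open circles are sites whose nearest coding gene is another one. Orange circles are few, with 5 at the inhibitors (19.2% of their sites, against 24.3% of all sites) and 1 at *Ccnd1*. The largest circle is the *Faf1* promoter in the *Cdkn2c* window. The 4 sites shared by *Cdkn2a* and *Cdkn2b* appear in both rows.

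At the 34 sites in both lists ADR folds exceeded PBS folds at 16 and were below them at 18, against 52.6% higher and 47.4% lower at all such sites. Since the median fold of the whole list was 6.53 for PBS and 7.42 for ADR, ranks were compared as well. By the percentile of a fold within its own list, 11 sites stood higher and 23 lower in the ADR list, against 41.7% higher and 58.3% lower at all sites in both lists. The median log2 ratio of ADR to PBS folds was -0.05, with a range from -1.21 to 1.52, beside a median of 0.05 (quartiles -0.40 and 0.55) for all sites in both lists. At 5 sites the fold was at least 1.5 times higher in the ADR list, against 23.9% of all sites in both lists, and at 7 it was at least 1.5 times lower, against 17.5%. Of the 7 lower sites, 4 were in the windows of the D-type cyclin genes, which held 11 of the 34 sites. These 4 were also nearest to such a gene, among 8 sites that were, an assignment chosen after seeing the data.

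**Figure D3:**
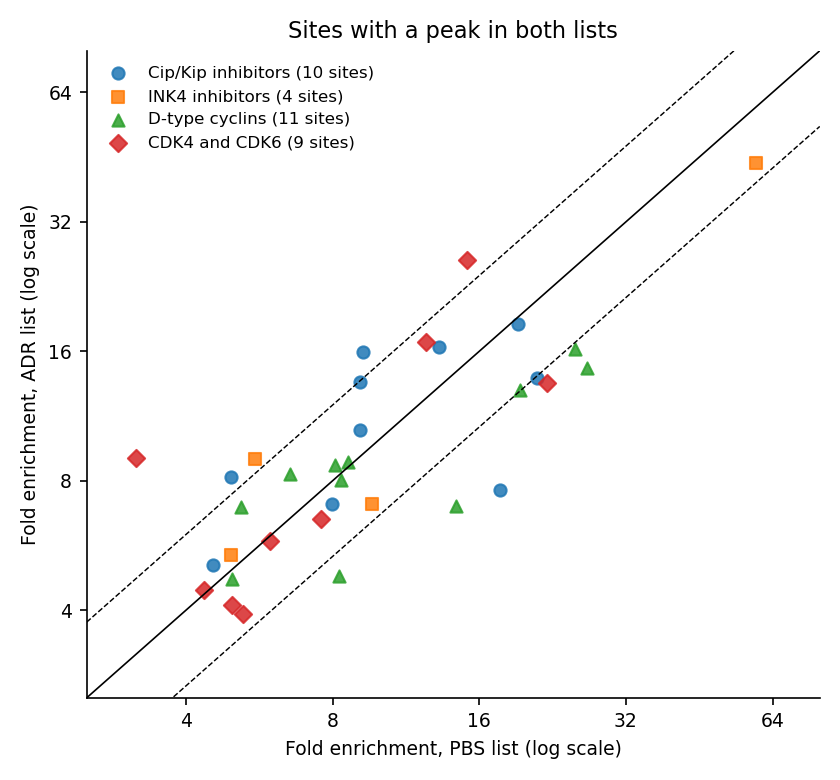
PBS fold enrichment (horizontal axis) against ADR fold enrichment (vertical axis), both on log scales, at the 34 sites with a peak in both lists. Symbols mark the gene group, the solid line marks equal folds and the dashed lines mark folds that differ by 1.5 times. The site farthest above the lines is the *March9* promoter (3.16 and 9.04). D-type cyclin sites, 11 of the 34, make up 4 of the 7 points below the lower line, where 17.5% of all sites in both lists lie.

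Peaks at the promoters, defined as 1 kb upstream to 100 bp downstream of any annotated transcript start, were found at 9 of the 10 genes with PBS and at all 10 with ADR. With 1 kb on each side of the start they were found at 10 genes in both lists. With the summit required inside the promoter the numbers were 8 and 9. Among all coding genes, 50.6% had a PBS promoter peak and 47.9% an ADR promoter peak. Of the 57 summits, 25 lay at a promoter of some gene, which is 43.9% against 26.2% of all sites, while 8 lay in exons, 11 in introns and 13 between genes. The 57 sites were taken for lying near gene starts, and all sites were not, so these shares cannot be compared directly. In 9 genes the promoter had a peak in both lists, and its fold was higher in the ADR list in 4 and lower in 5, against 46.3% and 53.7% of all promoter sites in both lists. Those shares count sites with the summit at a promoter, whereas a gene here needed only a peak reaching one, as at *Cdkn2c*. The ADR fold was at least 1.5 times higher at *Cdk4* and *Cdkn2c* and at least 1.5 times lower at *Ccnd3*, *Cdk6* and *Ccnd2*. Of all sites in both lists, at promoters or elsewhere, 23.9% were at least 1.5 times higher and 17.5% at least 1.5 times lower. The *Cdk6* difference did not hold with the mean fold of the peaks at its site (log2 ratio 0.04).

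**Figure D4:**
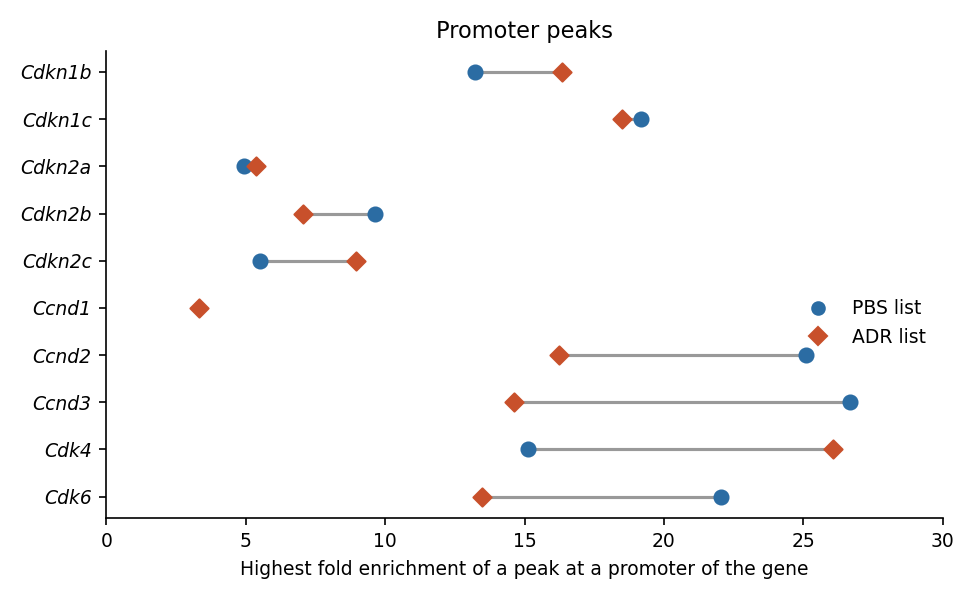
Highest fold enrichment of a promoter peak of each gene (horizontal axis, linear scale from 0) in the PBS list (blue circles) and the ADR list (orange diamonds). The longest lines run to the left, toward lower ADR folds, at *Ccnd3*, *Ccnd2* and *Cdk6*, and to the right at *Cdk4*. *Ccnd1* has an ADR point only, at a fold of 3.34.

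*Cdkn1b* (chr6:134920401-134925513, plus strand, GRCm38), which encodes p27, had 6 sites. At its promoter, 161 bp inside the gene, the fold was 13.2 for PBS and 16.3 for ADR, and these ranked at percentiles 83.8 and 83.6. The p27 promoter thus had nearly the same rank in both lists. A PBS-only site lay 3.15 kb upstream (5.75) and an ADR-only site lay in an exon 3.52 kb downstream of the start (5.36). At 8.25 kb downstream, where the annotated transcript *Lockd* starts, the folds were 7.98 and 7.06. The lowest ratio of all 34 shared sites was 48.2 kb downstream of the *Cdkn1b* start, at the edge of the window and nearest to *Apold1*, where the folds were 17.7 and 7.62, a log2 ratio of -1.21. This intergenic site, whose sequence is printed above, held AP-1 letters, TGANTCA with C or G as N, within 100 bp of its summit. The closest site beyond the window, 53.2 kb from the start, went the other way, with folds of 5.18 and 7.94. At the start of *Gpr19*, 22.4 kb upstream, the folds were 9.11 and 10.5.

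*Cdkn1c* (chr7:143458339-143461050, minus strand), which encodes p57, an imprinted gene, had 10 sites, of which 9 were nearest to *Cdkn1c* itself. The promoter peak, 10 bp from the start, had almost equal folds of 19.2 and 18.5. A weaker site 1.37 kb inside the gene had folds of 4.55 and 5.10. Downstream of the gene, 6 sites lay between 13.5 and 21.6 kb from the start, within 8.12 kb of each other. The strongest of them, 13.5 kb from the start, was lower in the ADR list (20.98 and 13.9, log2 ratio -0.59). Its neighbours were higher in the ADR list, with folds of 9.24 and 16.0 at 15.2 kb (0.79), 9.11 and 13.6 at 18.9 kb (0.58) and 4.94 and 8.17 at 21.6 kb (0.73). The 2 remaining sites of this cluster, at 15.9 and 17.3 kb, had peaks in the ADR list only, with folds of 5.75 and 6.10. Thus 5 of the 6 downstream sites were higher or present only in the ADR list. Of the 4 in both lists, 3 were higher there, 2 of them at least 1.5 times, against 52.6% and 23.9% of all sites in both lists. The other 2 were ADR only, against 24.3% of all sites. The promoter stayed level, and both upstream sites, 3.96 kb (5.23) and 12.7 kb away (4.46, at *Slc22a18*), were found in the PBS list only. With a minimum fold of 5 the gene had 5 PBS and 8 ADR peaks, so its order between the lists turned.

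*Cdkn2a* (chr4:89274471-89294653) and *Cdkn2b* (chr4:89306299-89311039), both on the minus strand, lie next to each other, so that their windows share 4 sites. *Cdkn2b* encodes p15, and *Cdkn2a* encodes p16 and, from a separate upstream start and another reading frame, ARF, which acts on the p53 pathway. At the *Cdkn2b* promoter, 10 bp upstream of the start, the folds were 9.64 and 7.06. At the upstream start of *Cdkn2a* a weak peak was found in both lists, with folds of 4.94 and 5.36, 119 bp upstream of the start. The downstream *Cdkn2a* transcript start, 12.5 kb into the gene, had a weak peak in the PBS list only (3.38), with its summit 13 bp away. Another PBS-only site lay in an intron 18.2 kb downstream (3.94). The 2 distal sites upstream of *Cdkn2b*, at 40.8 and 43.1 kb, were PBS only as well, with folds of 8.07 and 2.90. No site of either gene was ADR only, and both genes had 2 ADR peaks, against 4 PBS peaks at *Cdkn2a* and 6 at *Cdkn2b*. Several of these PBS peaks were close to the weakest of the list, at percentiles of 0.696, 2.56 and 7.41. Among peaks at least 5 times enriched, *Cdkn2a* had 1 PBS and 2 ADR peaks and *Cdkn2b* had 2 of each.

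*Cdkn2c* (chr4:109660876-109667189, minus strand), which encodes p18, had 2 PBS and 4 ADR peaks. Its own peak, with the summit 500 bp inside the gene and an edge that reached the promoter, had folds of 5.53 and 8.97, a log2 ratio of 0.70. ADR-only peaks lay 10.1 kb downstream of the start (5.28) and 25.5 kb upstream in an intron of *Faf1* (6.02). The strongest site of the whole set was 9.44 kb upstream, at the promoter of *Faf1*, which encodes a Fas-associated protein, with folds of 59.2 and 43.9. Those folds were at percentiles 99.84 and 99.65 of their lists. Sites in both lists with a fold like that one had a median log2 ratio of -0.40, beside -0.43 here. The difference between the lists at the *Cdkn2c* gene thus rests on a moderate promoter peak and weak ADR-only peaks.

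*Ccnd1* (chr7:144929931-144939925, minus strand), which encodes cyclin D1, had 6 sites. The only peak at its promoter, as defined above, was in the ADR list, with a fold of 3.34 at percentile 1.67, close to the weakest peaks called. The stronger sites flanked the promoter. At 1.81 kb upstream, where the printed sequence holds WT1 letters, the fold was 14.3 for PBS and 7.0 for ADR, a log2 ratio of -1.03 and the lowest after the *Cdkn1b* downstream site. In contrast, the neighbouring sites 3.50 kb upstream (8.07 and 8.71) and 2.22 kb inside the gene, in an intron (8.59 and 8.84), were nearly equal. At *LTO1*, 25.1 kb downstream, the folds were 8.33 and 8.02, and a PBS-only site lay at *Fgf15*, 43.8 kb downstream (4.72).

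*Ccnd2* (chr6:127125162-127152193, minus strand), which encodes cyclin D2, had the largest difference in number, with 7 PBS and 2 ADR peaks. Its strongest site lay 1.13 kb inside the gene record, next to a cluster of annotated *Ccnd2* transcript starts, and had folds of 25.1 and 16.2, a log2 ratio of -0.63. The site 4.27 kb downstream of the record start, in an exon, was in both lists with nearly equal folds of 4.98 and 4.73. Around the promoter, 4 sites within 3 kb of the record start had a peak in the PBS list only. Their folds were 3.97 and 5.49 at 2.94 and 1.42 kb upstream, and 7.82 and 6.90 at 1.81 and 2.45 kb downstream. The remaining PBS-only site was at *Tigar*, 42.6 kb downstream (4.46). WT1 letters were found at 5 of the 7 *Ccnd2* sites, namely the promoter and the 4 nearby PBS-only sites, and forkhead letters at 0. Of all sites, 26.7% had WT1 letters and 23.9% forkhead letters, and of all PBS-only sites 20.0% had WT1 letters. Those shares were not matched for position or base composition, and the *Ccnd2* sites lie close together. The difference in number of peaks held without the weakest peaks. At a fold of at least 5, 4 PBS peaks and 1 ADR peak remained, and 3 and 1 among the 20000 peaks with the smallest q of each list. The long noncoding gene *9330179D12Rik* overlaps these sites.

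*Ccnd3* (chr17:47505051-47599691, plus strand), which encodes cyclin D3, had 5 sites, all in both lists. At the promoter, 9 bp upstream of the start, the fold was 26.7 for PBS and 14.6 for ADR, a log2 ratio of -0.87. The intronic sites 3.01 and 6.16 kb downstream were lower in the ADR list too, with folds of 19.4 and 13.0 (-0.58) and of 8.24 and 4.79 (-0.78). In contrast, the sites nearest to *Taf8*, which encodes a subunit of the general TF TFIID, were higher in the ADR list, with folds of 5.18 and 6.95 at 2.77 kb upstream (0.43) and of 6.53 and 8.29 at 20.6 kb upstream (0.35). The promoter site and the nearer *Taf8* site, both upstream of the *Ccnd3* start and less than 3 kb apart, thus differed in opposite directions between the lists. Over the 3 cyclin genes, 13 sites were nearest to a D-type cyclin gene, of which 8 were in both lists, 4 PBS only and 1 ADR only. Of the 8, 6 were lower and 2 were higher in the ADR list, with a median log2 ratio of -0.60. Assignment to the nearest coding gene was chosen after seeing the data. With every site in the windows of the 3 cyclin genes counted, 11 were in both lists. Of these 11, 7 were lower and 4 were higher, with a median log2 ratio of -0.07. Of all sites in both lists, 47.4% were lower and 52.6% higher.

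*Cdk4* (chr10:127063534-127067920, plus strand), which encodes a kinase partner of the D-type cyclins, showed the opposite order at its promoter. The fold 222 bp upstream of the start was 15.1 for PBS and 26.1 for ADR, a log2 ratio of 0.79, and the percentiles were 87.1 and 94.0. The site 3.12 kb upstream, at the start of *March9*, had folds of 3.16 and 9.04, a log2 ratio of 1.52 and the highest of the 34 shared sites. At the other sites of the window the order was mixed. A PBS-only site lay 5.14 kb upstream in an intron of *March9* (6.01), and at the *Tsfm* start, 32.7 kb upstream, the folds were 12.4 and 16.8. The sites at *Eef1akmt3* and *Mettl1*, 21.5 and 20.0 kb upstream, had folds of 5.94 and 5.78 and of 5.23 and 3.91. At *Tspan31*, 6.75 kb downstream, the folds were 7.56 and 6.51. In *Agap2*, a PBS-only site lay 17.8 kb downstream (4.46), and the folds 27.5 kb downstream were 4.98 and 4.12. Only the promoter site was nearest to *Cdk4* itself, with 1 peak in each list. The lower number of ADR peaks in this window, 7 against 9, thus came from sites nearer to the starts of other genes. Which gene those sites act on was not tested.

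*Cdk6* (chr5:3341485-3531008, plus strand), which encodes the other kinase partner of the D-type cyclins, is alone in its window and had 5 PBS and 2 ADR peaks. Its strongest site lay 2.35 kb inside the gene record, at the starts of its long transcripts, with folds of 22.1 and 13.5, a log2 ratio of -0.71. This site held 2 PBS peaks and 1 ADR peak, and with the mean instead of the highest fold of the peaks the log2 ratio was 0.04. At 0.789 kb the folds were close, 4.36 and 4.45. PBS-only sites lay 1.49 kb inside the record (5.11) and 40.2 kb upstream (4.20). *Cdk6* and its relative *Cdk4* thus differed in direction at their main promoter, with folds of 22.1 and 13.5 at *Cdk6* and of 15.1 and 26.1 at *Cdk4*.

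Within 100 bp of the summit, forkhead letters were present at 12 of the 57 sites, which is 21.1% (12.5 to 33.3) against 23.9% of all 53255 sites. The shares over all sites were not matched for promoter position or base composition. WT1 letters were present at 20 sites, 35.1% (24.0 to 48.1) against 26.7%. Within 50 bp of the summit they were present at 19 sites, 33.3% (22.5 to 46.3), and the 21.03% of all sites then lay below the interval. KLF letters (GGGCGGGG, GGGCGTGG, GGGTGGGG or GGGTGTGG), which like those of WT1 are rich in G, were present at 14 sites, 24.6% against 17.2%, and 4 sites had both. AP-1 letters were present at 4 sites, 7.02% against 7.57%. E2F letters (TTTCCCGC, TTTCGCGC, TTTGCCGC or TTTGGCGC) were present at 2 sites, at the upstream *Cdkn2a* start and 2.94 kb upstream of *Ccnd2*, 3.51% against 1.12%. LMX1B letters (TTAATTA) and TEAD letters (ACATTCCA, ACATTCCT, GCATTCCA or GCATTCCT) were at 0 of 57 sites, with an upper bound of 6.31% for both, against 2.95% and 8.58% of all sites. For TEAD the share of all sites lay above that bound, though within 50 bp of the summit it was 5.18% and lay below it. Each gene's strongest site was also examined, after these values were seen. WT1 letters were at 7 of these 9 distinct sites, beside 37.0% of the 17902 sites with a fold of at least 9.64, the lowest among them. The sites of *Cdkn1b* and of *Cdkn2c* at *Faf1* lacked them.

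**Figure D5:**
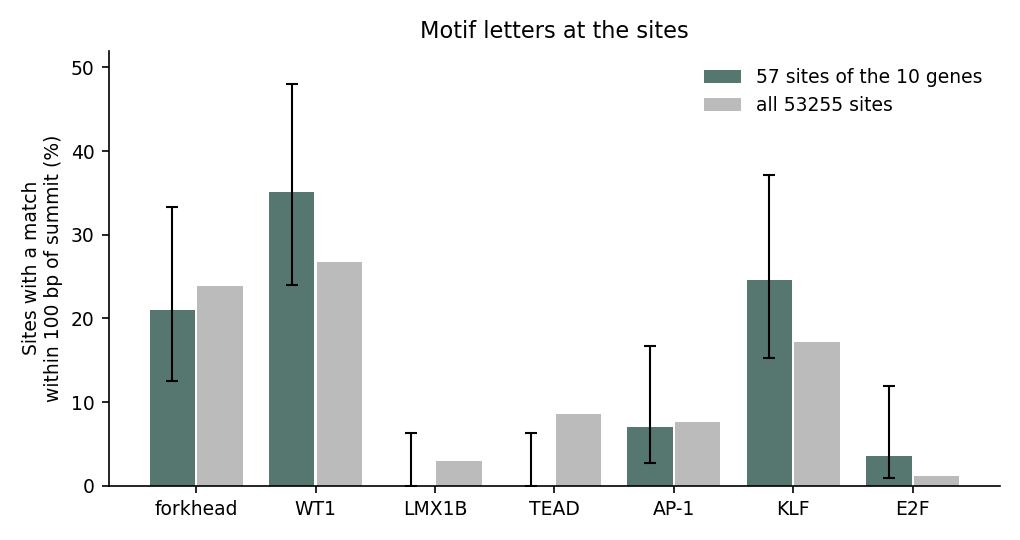
Share of sites with an exact motif match within 100 bp of the summit (vertical axis, percent) for the 57 sites of the 10 genes (green bars, with 95% Wilson intervals) and for all 53255 sites (grey bars). The grey bar lies inside the interval for every motif except TEAD, where no site of the 10 genes has a match, and the WT1 bars stand at 35.1% and 26.7%.

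Of 55 further cell cycle genes, 51 had a peak within 50 kb, with 284 PBS and 264 ADR peaks in all. The ADR list had more peaks at 14 of the 51, or 27.5%, and fewer at 21, or 41.2%, close to the 27.2% and 44.1% of all coding genes with a peak. Promoter peaks were found at 48 of the 55 with PBS and at 44 with ADR. With ties in number ordered by the change in summed fold, the 5 largest surpluses of ADR peaks were at *E2f1* (12 PBS and 16 ADR peaks) and *E2f3* (5 and 8), which encode E2F factors, *Cdc6* (13 and 15), which loads the replicative helicase, *Cdk2* (4 and 6) and *Cdk7* (2 and 4). *Tfdp2* and *Skp2* had the same difference as *Cdk7*, with 1 and 3 peaks each. The 5 largest surpluses of PBS peaks were at *Wee1* (7 and 1), a kinase that holds back mitosis, *E2f6* (10 and 5) and *E2f4* (13 and 9), which encode further E2F factors, *Cdkn1a* (13 and 9), which encodes the inhibitor p21, and *Cdc25a* (6 and 3), a phosphatase that activates CDKs. Among the other E2F genes, *E2f2* had 9 and 7 peaks, and *E2f5*, *E2f7* and *E2f8* had equal numbers. At the *Cdkn1a* promoter the folds were 19.7 and 11.8, beside 13.2 and 16.3 at *Cdkn1b* and 19.2 and 18.5 at *Cdkn1c*.

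The cell label was set against marker genes. All 6 podocyte markers had peaks in both lists, with 55 PBS and 68 ADR peaks, and 5 of the 6 had more in the ADR list. Of 21938 coding genes, 16880 had a peak within 50 kb in either list, and 27.2% of those had more ADR peaks. Every mesangium and proximal tubule marker had a peak in at least 1 list as well, so having a peak says little about the cell type. The endothelial markers *Emcn* and *Cdh5* and the leukocyte marker *Ptprc* had no peak in either list, but the other markers of these cells did. Of the endothelial markers, *Pecam1* had 6 PBS and 7 ADR peaks, *Ehd3* 5 and 3, and *Kdr* 3 and 1. Of the immune markers, *Cd68* had 12 and 14 and *Cd3e* 4 and 3. Markers of glomerular endothelium had 14 and 11 peaks, of mesangium 17 and 17, of immune cells 16 and 17, and of proximal tubule 13 and 22, where *Slc34a1* had 4 and 13. Peaks can lie near genes that are not transcribed, and the part of other cells in the results above was not tested.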

How the data were processed

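FOXC2 ChIP-seq reads (50-bp single-end, 3 samples per condition) were trimmed, aligned to GRCm38 and used for narrow peak calling in the nf-core/chipseq pipeline by the authors, who pooled the replicates. Versions and the peak threshold are not given in the sources used here. The deposited lists hold 41075 PBS and 40067 ADR peaks with 10 columns, including a score, the fold enrichment at the summit over the control (a ratio), and the −log10 p and −log10 q. The score and p were not used. Groups came from sample titles. Read depth is unknown.

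Peaks were counted per gene within 50 kb of the start of the GENCODE M21 record. Overlapping peaks (1 bp or more) formed sites, and the highest fold in each list stood for a site. Percentiles rank a fold within its list. Motifs were exact matches in the GRCm38 reference. Shares have 95% Wilson intervals. Scripts used Python 3.11.15, pandas 2.3.3, NumPy 2.4.6, SciPy 1.17.1, pysam 0.24.0 and matplotlib 3.10.9, and were tested on simulated lists.

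The members and lists were chosen with earlier results of these data known. All 10 genes were named, with their strongest sites, the nearest coding genes, and the 5 largest increases and 5 largest decreases among other cell cycle genes. Other sites and genes were named after their values were seen. Alternatives were windows of 10 and 25 kb, any transcript start, a −log10 q of at least 5, a fold of at least 5, the 20000 smallest q, summit position, stricter overlap, other scalings of the fold, other promoter limits and motif windows. Peaks assigned to the nearest coding start, folds centered on sites of like fold, and a background of genes with at least 6 peaks were chosen after seeing the data. RNA-seq, WT1 ChIP-seq and the study's read-based differential binding are not analysed here, and results at some genes are not reported here.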

Additional observations from a re-analysis of the deposited data

How the results depend on the processing

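No paired analysis was possible because the processed lists hold 1 pooled set of peaks per condition, and for the same reason no replicate could be left out. A window of 10 kb left 32 PBS and 25 ADR peaks. More ADR than PBS peaks were found at 2 genes with windows of 10 or 25 kb. With a −log10 q of at least 5, 2 genes had more and 4 fewer ADR peaks. With a fold of at least 5, 35 PBS peaks remained, 3 genes had more and 4 fewer. Among the 20000 smallest q, 25 PBS and 22 ADR peaks remained, 2 genes had more and 4 fewer. Counting peaks only for the nearest coding start gave 2 with more and 4 with fewer. The ADR minus PBS difference of *Cdkn1c*, -1 as reported, became 1 with the q limit, 3 with the fold limit and 1 among the 20000 smallest q, and that of *Cdkn2a*, -2 as reported, became 1 with the fold limit. The log2 ratio of the *Cdk6* promoter became 0.039 with the mean fold of its peaks, which averages a second, weaker PBS peak. Within 50 bp of the summit, the share with forkhead letters was 10.5%, with AP-1 letters 1.75%, with KLF letters 8.77% and with E2F letters 0%, a shorter window. The shares of sites in both lists or in one list only stayed within their reported intervals under every alternative run, but the ADR-only share went from 10.5% to 20.5% with a fold of at least 5, where 29.5% of all sites lay inside its own interval. All 12 sites that differed by 1.5 times kept their side with folds centered on sites of like fold, which added 1 lower site. Numbers of peaks and folds depend on the depth of each pooled library, which is not known, so weak peaks of a single list may be undetected rather than absent in the other.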
